A study of Mus musculus with 8 samples.

Results

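Striatal projection neuron markers are 7 genes, Drd1, Adora2a, Ppp1r1b, Rgs9, Pde10a, Penk and Tac1, that were taken by symbol from the 54532 genes of the deposited expression table, and all 7 were listed there once. RNA-seq had been made from the substantia nigra of C57BL/6 males, 2 libraries for each of 4 groups. The combined group had received 2 agents, an α-synuclein vector made from adeno-associated virus (AAV) and α-ketoglutarate (AKG), a TCA cycle intermediate taken with food according to the series title. The vector group had been given the AAV alone, the AKG group AKG alone, and the control group is labelled wild type and control. The labels state neither ages, doses and the promoter of the AAV, nor whether control and AKG mice carried an empty vector, nor whether the 2 libraries of a group came from separate animals. The p-values therefore measure only the spread between these samples, which may be technical.

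Projection neurons of the striatum are GABA neurons that carry most of its output. Those of the direct pathway send axons to the substantia nigra, make the dopamine receptor Drd1 and release substance P, made from Tac1, while those of the indirect pathway make the adenosine receptor Adora2a and the enkephalin precursor Penk and reach the nigra through other nuclei. Both types use Ppp1r1b (DARPP-32, an inhibitor of protein phosphatase 1), Rgs9 (which speeds the shut-off of G proteins) and Pde10a (a phosphodiesterase that breaks down cAMP and cGMP). Their cell bodies lie in the striatum, not in the nigra, and several of these genes are also used by other cells. In bulk tissue, fewer cells of a type and less RNA per cell cannot be told apart.

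Levels are given in FPKM (fragments per kilobase of gene, scaled to library size), a per-length unit in which the genes can be set beside each other. Libraries held 16544190 to 19125423 reads on genes, so that a single read over 1 kb of gene counted for 0.0515 to 0.0590 FPKM. The second combined library and the first control library had the highest summed level of 10 choroid plexus genes, 4980 and 8985 FPKM, against 56.3 to 2553 FPKM in the other 6. The first control library also stood apart over all genes, with a mean Spearman correlation of 0.926 with the other libraries, against 0.971 to 0.975 for the rest. Its 5 hemoglobin genes summed to 14.6 FPKM, against 172 to 444 FPKM in the other 7 libraries. The tissue label was checked with 14 dopamine neuron genes, which summed to 73.0 to 107 FPKM in the 6 treated libraries and to 164 and 176 FPKM in the control libraries, while En1 was at 0 in at least 1 library. Th, the enzyme that makes the dopamine precursor, differed from control by -1.27 in the combined, -1.38 in the vector and -1.79 in the AKG group, and the dopamine transporter Slc6a3 by -1.63, -2.99 and -4.00 (log2), of which only Th in the AKG group passed the threshold (limma adjusted p = 0.041). Of the forebrain excitatory genes, Emx1 was at 0 in at least 1 library, and the 12 genes summed to 74.5 to 117 FPKM.

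Promoter regions, 250 bases before to 50 after an annotated start, were present for 4 of the 7 members in the RefSeq table used (GRCm38.p6), with 6 regions in all. Penk, Ppp1r1b and Adora2a were not among them. Regions of Tac1 and Pde10a are shown because these 2 genes had the smallest p-values against control. The Tac1 region is chr6:7554811-7555110 on the plus strand and the Pde10a region, 1 of 2 for this gene, is chr17:8801495-8801794 on the plus strand. The deposited Pde10a gene starts at base 8525372, so both of its regions lie inside the gene and neither covers that start. The deposited Tac1 gene starts at base 7554879, within its printed region, so the bases from there on lie inside the gene. Capitals mark matches, on either strand, to the half-site of the cAMP response element (TGACG, or CGTCA on the other strand) and to the GC box (GGGCGG, or CCGCCC on the other strand).
Tac1: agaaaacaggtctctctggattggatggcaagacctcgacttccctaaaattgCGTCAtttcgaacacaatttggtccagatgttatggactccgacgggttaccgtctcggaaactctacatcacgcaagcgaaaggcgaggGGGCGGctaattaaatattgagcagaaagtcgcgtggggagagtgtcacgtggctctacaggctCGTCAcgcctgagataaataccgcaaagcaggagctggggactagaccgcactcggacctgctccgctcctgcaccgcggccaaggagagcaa
Pde10a: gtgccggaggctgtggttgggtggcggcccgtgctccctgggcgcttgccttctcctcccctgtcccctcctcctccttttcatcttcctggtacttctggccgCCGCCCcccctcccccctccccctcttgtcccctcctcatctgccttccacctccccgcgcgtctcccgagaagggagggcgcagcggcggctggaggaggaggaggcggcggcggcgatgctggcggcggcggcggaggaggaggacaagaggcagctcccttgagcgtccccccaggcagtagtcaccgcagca
The Tac1 region held the half-site at bases 54 to 58 and 208 to 212 and a GC box at bases 144 to 149. Of these, the half-site at bases 208 to 212 and the GC box lie after the deposited start of Tac1. The Pde10a region held a GC box at bases 105 to 110. The TATA box (TATAAA) was searched in the same way and was found in neither, and no match overlaps another in the printed regions. Of all 32851 regions of this length in the table, 20.8% held the half-site, 35.7% the GC box and 13.6% the TATA box, so that the GC box is a common match. Among the 6 regions of members, 6 held a GC box, 1 the half-site (Tac1) and 1 a TATA box (Rgs9).

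All 7 members passed the filter of a mean of 1 FPKM. From the highest to the lowest mean level the order was Penk, Ppp1r1b, Tac1, Pde10a, Rgs9, Adora2a and Drd1. Tac1 and Pde10a were the only neighbours in this order whose ranges over the 8 libraries did not overlap, and Tac1 was higher than Pde10a in 8 of 8 libraries. Penk exceeded Ppp1r1b in 5 of 8 libraries, Ppp1r1b exceeded Tac1 in 8, Pde10a exceeded Rgs9 in 7, Rgs9 exceeded Adora2a in 7, and Adora2a exceeded Drd1 in 5. Penk and Ppp1r1b, and likewise Adora2a and Drd1, thus changed places between libraries.

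**Figure D1:**
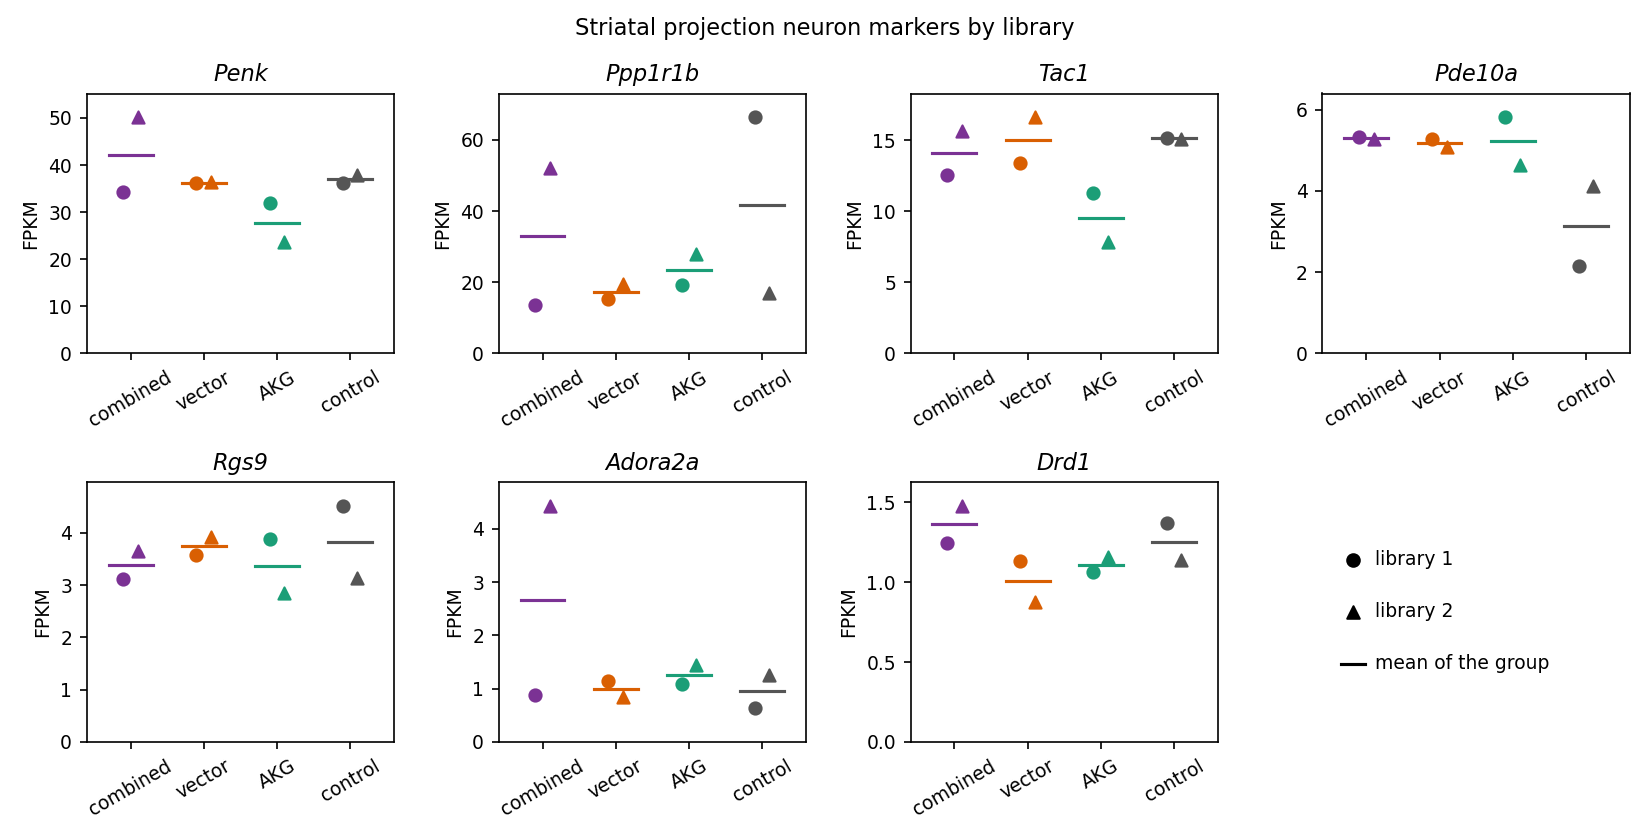
Level of each of the 7 striatal projection neuron markers in FPKM (vertical axis) in the combined, vector, AKG and control groups (horizontal axis), 1 point per library, 2 libraries per group. Adora2a stands high in the second combined library at 4.44 FPKM, and Ppp1r1b in the second combined and first control libraries at 52.2 and 66.4 FPKM.

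Drd1, the dopamine receptor of direct pathway neurons (ENSMUSG00000021478, chr13:54051183-54055705, minus strand), had the lowest level. It was at 1.25 and 1.48 FPKM in combined libraries, 1.13 and 0.877 FPKM in vector libraries, 1.06 and 1.16 FPKM in AKG libraries and 1.37 and 1.14 FPKM in control libraries. Both combined libraries lay above both vector and both AKG libraries, and both vector libraries lay below both control libraries, though only 1.13 against 1.14 FPKM at the nearest pair. These levels rest on only 54 to 96 reads per library.

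Tac1, the precursor of substance P (ENSMUSG00000061762, chr6:7554879-7565834, plus strand), was at 12.5 and 15.7 FPKM in combined libraries, 13.4 and 16.6 FPKM in vector libraries, 11.3 and 7.83 FPKM in AKG libraries and 15.2 and 15.1 FPKM in control libraries. The 2 AKG libraries were the lowest of the 8 and did not overlap with any other group. Control libraries were nearly equal, and only 1.48% of tested genes had a smaller gap between them.

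Adora2a, the adenosine receptor of indirect pathway neurons (ENSMUSG00000020178, chr10:75316877-75334784, plus strand), was at 0.891 and 4.44 FPKM in combined libraries, 1.15 and 0.846 FPKM in vector libraries, 1.08 and 1.45 FPKM in AKG libraries and 0.642 and 1.26 FPKM in control libraries. The second combined library, with 243 reads, was 3.07 times the next highest library, and the first combined library lay inside the range of the other groups. No pair of groups was separated.

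Penk, the enkephalin precursor (ENSMUSG00000045573, chr4:4133531-4138819, minus strand), was at 34.3 and 50.2 FPKM in combined libraries, 36.2 and 36.4 FPKM in vector libraries, 31.9 and 23.7 FPKM in AKG libraries and 36.2 and 37.9 FPKM in control libraries. Both AKG libraries were below the 6 others, and the second combined library was the highest. The means were 42.2 ± 11.2 FPKM in the combined, 36.3 ± 0.145 in the vector, 27.8 ± 5.79 in the AKG and 37.0 ± 1.18 FPKM in the control group (SD, n = 2 each).

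Ppp1r1b, which encodes DARPP-32 (ENSMUSG00000061718, chr11:98348404-98357796, plus strand), had the widest gaps within groups on the log2(FPKM + 1) scale. It was at 13.7 and 52.2 FPKM in combined libraries, 15.2 and 19.5 FPKM in vector libraries, 19.1 and 27.9 FPKM in AKG libraries and 66.4 and 16.8 FPKM in control libraries. The second combined and the first control library were above the 6 others, and every pair of groups overlapped. On that scale its 2 libraries differed by 1.85 in the combined group, more than 99.6% of genes, and by 1.92 in the control group, more than 99.4%. As a ratio of FPKM the gap was wider for Adora2a in the combined group, at 4.98 times against 3.80 for Ppp1r1b, and in the vector group, at 1.36 against 1.28 times.

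Rgs9 (ENSMUSG00000020599, chr11:109225355-109298129, minus strand) was at 3.12 and 3.66 FPKM in combined libraries, 3.57 and 3.92 FPKM in vector libraries, 3.87 and 2.85 FPKM in AKG libraries and 4.52 and 3.14 FPKM in control libraries. The groups overlapped throughout, and its highest library was 1.58 times its lowest, the smallest such ratio of the 7 genes.

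Pde10a (ENSMUSG00000023868, chr17:8525372-8986648, plus strand) was at 5.34 and 5.28 FPKM in combined libraries, 5.29 and 5.08 FPKM in vector libraries, 5.82 and 4.65 FPKM in AKG libraries and 2.15 and 4.13 FPKM in control libraries. All 6 libraries of the treated groups were above both control libraries, and the first control library was the lowest by a wide margin. Genes on the opposite strand overlap Ppp1r1b, Penk and Pde10a, and since the strand setting of the counting is not given their reads could be mixed in. These genes were listed at no more than 0.224, 0.0710 and 0.0400 FPKM. Such levels depend on the same counting, and mixing of reads was not tested.

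Differences between groups were tested with limma on log2(FPKM + 1) over all 13716 tested genes, a scale that understates the change of low genes, and p-values were adjusted by Benjamini-Hochberg. The comparisons with control share the same 2 control libraries, and those between treated groups share libraries as well. In the vector group against control, 0 of 7 members were called, and the background was 0% of genes, with 1 member and 2305 genes at an unadjusted p under 0.05. voom on recovered reads also called 0 members and 0 genes. Pde10a was that member, higher by 0.62 ± 0.22 (log2, standard error), with an adjusted p of 0.294 in limma. The difference of Ppp1r1b was larger but uncertain, at -0.93 ± 0.74, and those of the other 5 lay between -0.17 and 0.05. Without overlap, 1 member was higher (Pde10a, background 26.3% of genes) and 1 lower (Drd1, background 27.6%), which is no more than the share in all genes.

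In the AKG group against control, 0 of 7 members were called, with a background of 0.00729% (1 gene, Th), and 2 members and 2431 genes had an unadjusted p under 0.05. voom also called 0 members and 1 gene. Tac1 was lower in the AKG group by -0.63 ± 0.19 (log2; limma adjusted p = 0.269) and Pde10a higher by 0.63 ± 0.22 (adjusted p = 0.270). Penk differed by -0.42 ± 0.20 (adjusted p = 0.315). Without overlap, 1 member was higher (background 26%) and 2 were lower, Penk and Tac1 (background 26.4%), close to the share in all genes. Tac1 differed by -0.87 without the first AKG library and by -0.40 without the second. Penk differed by -0.62 and -0.21 in the same way, so that the second AKG library carries much of both values.

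In the combined group against control, limma and voom called 0 of 7 members and 0% of genes, with 1 member and 1907 genes at an unadjusted p under 0.05. Pde10a was higher by 0.65 ± 0.22 (limma adjusted p = 0.349), Adora2a differed by 0.73 ± 0.45 (adjusted p = 0.433) and Ppp1r1b by -0.31 ± 0.74 (adjusted p = 0.837). Without the second combined library the difference of Adora2a was -0.03, so that this library alone sets it. Without overlap, 1 member was higher (Pde10a, background 21.3%) and 0 were lower (background 20.5%).

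The difference of Pde10a from control depended on the control libraries in all 3 comparisons. Without the first control library it was 0.27 in the vector, 0.27 in the AKG and 0.30 in the combined group, with limma adjusted p of 0.761, 0.721 and 0.877. Without the second it was 0.97, 0.98 and 1.003, and passed the threshold with limma adjusted p of 0.010, 0.0084 and 0.0090. The first control library is then the only control, and in that setting 3359, 3376 and 2916 genes were called in the 3 comparisons. Removing a smooth trend in gene length from each library gave 0.30 in the vector, 0.30 in the AKG and 0.35 in the combined group. The deposited length of Pde10a is 12849 bases, and the part of gene length in its difference was not tested.

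**Figure D2:**
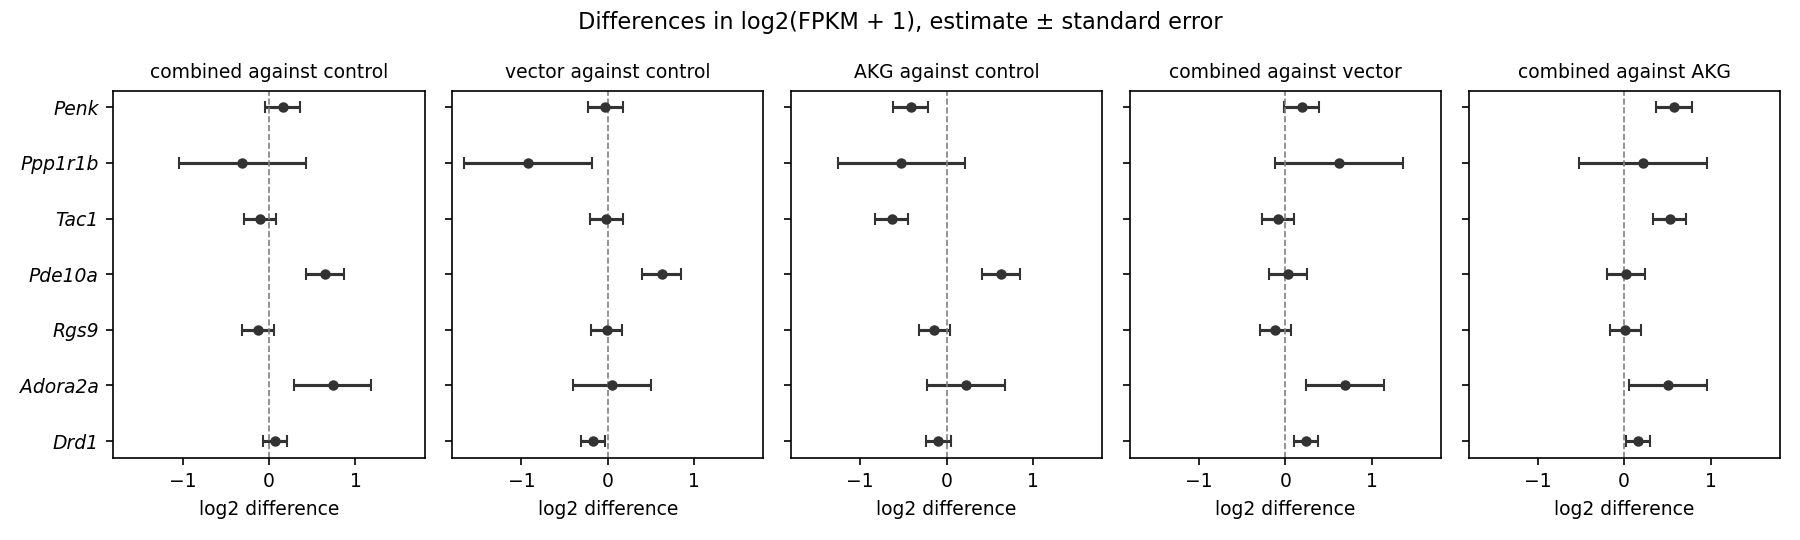
Log2 difference of log2(FPKM + 1) with its standard error (horizontal axis) for each of the 7 markers in the combined, vector and AKG groups against control and in the combined group against the vector and AKG groups. Pde10a lies at 0.65, 0.62 and 0.63 against control, and Ppp1r1b has the widest error of 0.74.

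The combined group was set against the vector group, the comparison that the series title is about, and limma and voom called 0 of 7 members and 0% of genes, with 0 members and 186 genes at an unadjusted p under 0.05. The differences were 0.69 ± 0.45 for Adora2a, 0.62 ± 0.74 for Ppp1r1b, 0.24 ± 0.14 for Drd1 and between -0.11 and 0.19 for the other 4 (limma adjusted p = 1.0 for all). Without the second combined library Adora2a differed by -0.08. Only Drd1 was higher without overlap (1 of 7, background 12.9%), and 0 were lower (background 11.4%).

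In the combined group against the AKG group, limma and voom called 0 of 7 members and 0% of genes, with 2 members and 156 genes at an unadjusted p under 0.05. Penk was higher by 0.58 ± 0.20 and Tac1 by 0.53 ± 0.19 (limma adjusted p = 1.0 for both). Without overlap, 3 members were higher, Penk, Tac1 and Drd1 (background 11.3%), and 0 were lower (background 11.8%). Leaving out the second AKG library brought Penk to 0.37 and Tac1 to 0.29, and leaving out the second combined library brought Penk to 0.31.

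The interaction asks whether the difference with AKG depends on the vector, and limma and voom called 0 of 7 members and 0% of genes, with 0 members and 998 genes at an unadjusted p under 0.05. Its largest values were 1.14 ± 1.04 for Ppp1r1b, 0.61 ± 0.29 for Penk, -0.60 ± 0.31 for Pde10a and 0.55 ± 0.27 for Tac1. With 1 library left out they came down to 0.18 for Ppp1r1b and -0.25 for Pde10a (without the first control library), 0.34 for Penk (without the second combined library) and 0.31 for Tac1 (without the second AKG library). For the 4 libraries with the vector against the 4 without, and for the 4 with AKG against the 4 without, limma and voom again called 0 of 7 members and 0% of genes. At an unadjusted p under 0.05 there were 0 members and 545 genes for the vector, and 1 member and 904 genes for AKG. That member was Tac1, at -0.36 ± 0.13 in libraries with AKG (limma adjusted p = 0.677). No member separated the 4 libraries from the other 4 in either direction (background 0.838% higher and 1.06% lower for the vector, 1.66% and 1.9% for AKG).

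The members did not share 1 pattern over the 8 libraries. Pearson correlations between their profiles, a description over libraries that also share depth and groups, ran from -0.64 (Ppp1r1b and Pde10a) to 0.86 (Penk and Tac1) over the 21 pairs, with a median of 0.28, and 15 pairs were above 0. The pair of neuropeptide precursors, from different types of projection neuron, was thus the closest. The second combined library was the highest library for 3 of 7 members, Adora2a, Penk and Drd1, against 10.9% of all tested genes, and the second AKG library was the lowest for 3, Penk, Tac1 and Rgs9, against 7.70%. The first control library was the lowest for Pde10a and Adora2a and the highest for Ppp1r1b and Rgs9, against 36.3% of all tested genes lowest and 31.6% highest there, so that its share of the members is no larger than that of all genes. In the second combined library, relative to the median of the other 7, Adora2a was at 4.10 times, Ppp1r1b at 2.73, Penk at 1.39, Drd1 at 1.30, Tac1 at 1.17, Pde10a at 1.04 and Rgs9 at 1.02 times. Only 14 of the 13716 tested genes had a ratio above that of Adora2a.

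The genes most like the mean of the 7 centred profiles were taken among 1743 candidates by Pearson correlation over the 8 libraries. They were Igkj3 at 0.88, Ngfr at 0.86, Tmem202 at 0.81, Lrrc38 at 0.81, Tmem98 at 0.79, Sfrp1 at 0.79, Klc3 at 0.78, Slc29a4 at 0.77, Car14 at 0.76 and Gpr6 at 0.76. Igkj3 is a very short immunoglobulin segment whose FPKM moves by large steps. The mean profile itself stood 0.49 above its average in the second combined library and 0.10 in the first control library, whereas the remaining 6 libraries lay at -0.17 to -0.04, so likeness to it is mostly likeness in those 2. Gpr6, an orphan receptor of indirect pathway neurons, was at 2.10 and 3.19 FPKM in combined, 1.73 and 1.98 in vector, 1.94 and 0.959 in AKG and 3.25 and 1.68 FPKM in control libraries.

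Ppp1r1b followed the choroid plexus genes. Over the 8 libraries its level had a Spearman correlation of 1.0 with the mean deviation of these genes (exact permutation test, two-sided, p = 4.96e-05, the smallest such a test can give; 0.0031 after Benjamini-Hochberg over 63 relations of members with 9 lists of other cells). Pearson's r was 0.896 (exact permutation p = 0.0022, adjusted 0.141), it was 0.915 over 6 libraries after leaving out the 2 farthest from the median, and 0.901 without the second combined and first control libraries. Ttr, the main secreted protein of the choroid plexus, was at 53.4 and 4857 FPKM in combined, 44.0 and 1959 in vector, 1334 and 2466 in AKG and 8778 and 435 FPKM in control libraries. The genes with the closest profile to Ppp1r1b, chosen after their values were seen, were Rdh5, Dnase1l1, Tcn2, Cdkn1c and Lgals3bp, at r of 0.998 to 0.987. The part of choroid plexus RNA in the level of Ppp1r1b was not tested. Members and lists were chosen with earlier results of these data known, and the adjustment over 63 relations does not cover that choice. The permutation also took the 8 libraries as separate samples, which the labels do not state.

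**Figure D3:**
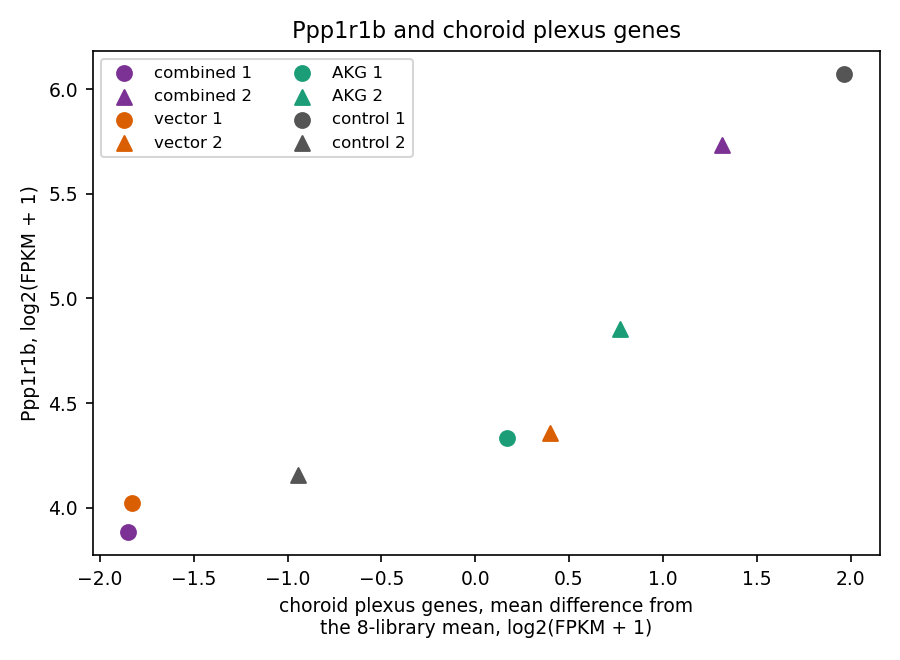
Ppp1r1b, as log2(FPKM + 1) (vertical axis), against the mean deviation of the choroid plexus genes (horizontal axis), 1 point per library, coloured by group. The 8 libraries fall in the same order on both axes, with the first combined library lowest and the first control library highest.

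No other member passed the adjusted threshold with any of the 9 lists, by either coefficient. Adora2a had a Spearman correlation of 0.929 with the hemoglobin genes (adjusted exact permutation p = 0.070), with r = 0.539. It had r = 0.852 with the midbrain GABA neuron genes (adjusted exact permutation p = 0.315), which came to 0.109 without the first control and second combined libraries. The midbrain GABA neuron list shares the gene Otx2 with the choroid plexus list. With the oligodendrocyte genes Adora2a had r = 0.827 (adjusted exact permutation p = 0.149). That r was 0.710 without the first control and second combined libraries, and 0.711 without the second control and second combined libraries. The oligodendrocyte genes summed to 2182 FPKM in the second combined library, the highest of 1309 to 2182 FPKM. Pde10a had r = 0.914 with the thalamus and midbrain excitatory genes (adjusted exact permutation p = 0.315). This r was 0.370 without the first control and second combined libraries, and 0.901 without the first control and second AKG libraries. With the hemoglobin genes Pde10a had r = 0.793 (adjusted exact permutation p = 0.392). That value turned to -0.816 without the first control and second combined libraries. Penk had r = 0.792 with the midbrain GABA neuron genes (adjusted exact permutation p = 0.315). That r was 0.527 without the first control and second combined libraries, and -0.079 without the second AKG and second combined libraries. Rgs9 had r = 0.772 with the striatal interneuron genes (adjusted exact permutation p = 0.315). That r was 0.507 without the first control and second combined libraries, and 0.170 without the first control and second AKG libraries. Tac1 had r = 0.750 with the striatal interneuron genes (adjusted exact permutation p = 0.315). That r was 0.950 without the first control and second combined libraries, and 0.900 without the first control and second AKG libraries. The striatal interneuron genes were lowest in the second AKG library at 182 FPKM, against up to 623 FPKM elsewhere. Hypothalamic genes were also lowest there, at 432 FPKM, against up to 2727 FPKM in the first control library. What these other cells contribute to the levels of the markers was not tested.

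Further genes of the same neurons were listed by the pathway they mark. Of 8 direct pathway genes 7 passed the filter, of 7 indirect pathway genes 6, and of 28 genes shared by both types 26, and these lists include the 7 members. In all 8 comparisons 0 of these genes were called. Shared genes lay above control for 22 of 26 in the vector, 21 in the AKG and 22 in the combined group, with medians of 0.32, 0.31 and 0.38 on the log2 scale, while 48.8%, 48.6% and 49.2% of all tested genes lay above control and their medians were -0.01. Some lists of other cells also differed from control in these comparisons, with 1 of their genes (Th, in the AKG group) called. Not all did, and the midbrain GABA neuron genes had medians of 0.01 in the vector, 0.02 in the AKG and 0.22 in the combined group. The thalamus and midbrain excitatory genes lay above control for 10 of 12 in the vector, 11 in the AKG and 9 in the combined group, with larger medians of 0.60, 0.87 and 0.64. The forebrain excitatory genes had medians of 0.40, 0.55 and 0.49 in the same groups, and the dopamine neuron genes lay below control for 9 of 10 in each, with medians of -0.70, -1.11 and -0.67. The part of these cells in the values of the shared genes was not tested. The direct pathway genes had medians of -0.02 in the vector, -0.23 in the AKG and -0.10 in the combined group, and the indirect pathway genes of -0.01, -0.07 and 0.13. The first control library was the lowest of the 8 for 20 of the 26 shared genes, Pde10a among them, against 36.3% of all tested genes. Over the projection neuron lists without the members it was the lowest for 22 of 32 genes. The 5 with the highest mean level outside the 7 markers were Tmem158 at 53.7 FPKM, Gnal (the stimulatory G protein subunit of the striatum) at 37.4, Pde1b (a calmodulin-dependent phosphodiesterase) at 36.4, Adcy5 (the main adenylyl cyclase of the striatum) at 30.4 and Ptpn5 (the phosphatase STEP) at 30.1 FPKM.

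**Figure D4:**
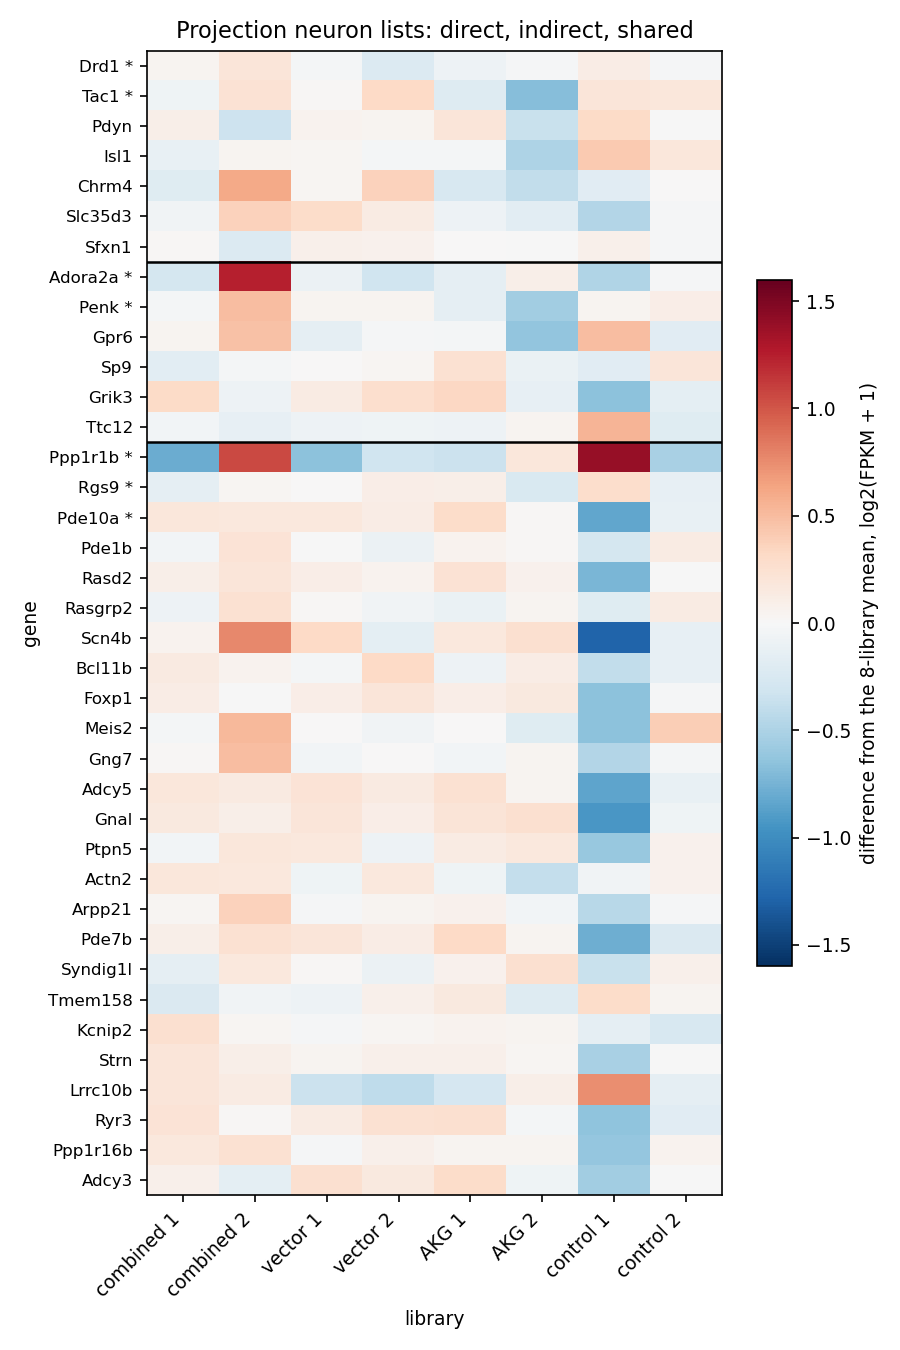
Heat map of the direct pathway, indirect pathway and shared genes (rows, top to bottom, asterisks mark the 7 markers) in the 8 libraries (columns), coloured by the difference from the 8-library mean in log2(FPKM + 1), red above and blue below. The first control library is the lowest for 19 of the 25 shared genes shown.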

How the data were processed

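Libraries were prepared from column-purified total RNA with a SMARTer kit for mRNA, per the labels' protocols. The authors deposited 1 table of FPKM values with gene length and GRCm38 coordinates, per the file headers, and GRCm38 and mm10 are named in the submitters' processing notes. Neither the aligner and counting tool nor the strandedness is given in the sources used here. FPKM times length gave whole reads for 100% of values (within 0.01 of a read), 16544190 to 19125423 per library.

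The 13716 genes averaging 1 FPKM or more were fitted on log2(FPKM + 1) with limma 3.58.1 in R 4.3.3, with 1 mean per group over 8 libraries, eBayes with a trend, two-sided, Benjamini-Hochberg adjustment and calls below 0.05. There were 4 residual and 2.98 prior degrees of freedom. FPKM is no count, so voom on the recovered reads was only an alternative. It and the fit without the first control and second combined libraries together were chosen after seeing the data. Further alternatives were no filter, a 5 FPKM minimum, 0.1 as the pseudocount, quantile and median-of-ratios scaling, removal of a length trend (spline with 5 degrees of freedom), a replicate block, eBayes without trend, library weights, fits of the compared groups alone, and fits without each library in turn.

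The members, the lists and the tests were chosen with earlier results of these data known. The text names the 7 members, the 5 projection neuron genes with the highest means, the 10 genes with the profile most like the members' mean (SD of at least 0.3 over libraries, pseudogenes, unnamed genes and Gm or Rik models not considered), Th and Slc6a3, and the first 2 genes of the other lists, of which part is printed. Other genes were chosen after their values were seen. Of the shared projection neuron genes, 1 enters the counts but is not reported here by name. Correlations with 9 lists of other cells used exact permutation over libraries. The fit was tested on simulated data. Python 3.11.15, pandas 2.3.3, numpy 2.4.6, scipy 1.17.1 and matplotlib 3.10.9 were used for tables, permutation tests and figures.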

Additional observations from a re-analysis of the deposited data

Results flagged for a closer look

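In the 4 libraries that share the vector or its absence, or AKG or its absence, the gap of an extreme library to the nearest other was divided by the whole range, and 6 of 28 such tests exceeded the 95% critical value of Dixon's test for 4 samples, which chance exceeds in about 1 in 20 groups. The arms share libraries, so these tests are not independent. Adora2a in the second combined library gave 0.915 among libraries with the vector and 0.844 among libraries with AKG. Ppp1r1b in the second combined library gave 0.850 among libraries with the vector, and in the first control library 0.917 among libraries without AKG. Penk in the second combined library gave 0.869 among libraries with the vector. Penk in the second control library gave 0.880 among libraries without AKG, where the 4 levels lay between 36.2 and 37.9 FPKM.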

How the results depend on the processing

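Of 1067 differences of members under alternatives, 983 kept their direction and their side of the threshold, 78 changed sign, 6 newly passed the threshold and 0 lost a call. Without the filter on low values 4 genes were called in the combined, 5 in the vector and 12 in the AKG group against control, 6 and 14 in the combined group against the vector and AKG groups, and 7 for the vector average. A pseudocount of 0.1 gave 1 call in the combined and 2 in the AKG group against control. In the AKG group against control 0 genes were called without the length trend, with the replicate number as a block, with eBayes without trend, with library weights and without the first control and second combined libraries together. The replicate numbers showed no pairing of the samples shared by all groups. Only 1 of 6 correlations between groups was above 0.1, that of the combined with the AKG group at 0.34. The lowest was -0.32, and the block called 0 members. Pairing between the combined and AKG groups was not tested.

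Leaving out each library in turn gave 0 to 2916 genes called in the combined, 0 to 3359 in the vector and 0 to 3376 in the AKG group against control, 0 to 1369 for the interaction, 0 to 692 for the vector average and 0 to 1304 for the AKG average, with 0 to 1 members called in each, and 0 in the other comparisons. All the highest counts came without the second control library, and the member was Pde10a in all 6, at -0.95 in the interaction and 0.50 in both averages (limma adjusted p = 0.033, 0.040 and 0.029 for interaction, vector and AKG). An arm left with 1 library was assumed to vary like the others.

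These members changed sign, all without a call. Quantile normalization gave Penk 0.055, Tac1 0.0072 and Adora2a -0.021 in the vector group against control, and Rgs9 -0.018 for the vector average. Without the length trend Penk was at 0.21 and Tac1 at 0.052 in the vector group against control, and Rgs9 at -0.057 and Drd1 at 0.020 for the vector average. These were the values without the first control and second combined libraries together. Vector against control had Ppp1r1b at 0.032, Rgs9 at 0.19, Adora2a at -0.18. AKG against control had Ppp1r1b at 0.43, Rgs9 at 0.066, Adora2a at -0.0032. Combined against control had Penk at -0.14, Adora2a at -0.26. Combined against vector had Penk at -0.078, Ppp1r1b at -0.31, Adora2a at -0.075. Combined against AKG had Ppp1r1b at -0.71, Rgs9 at -0.074, Adora2a at -0.25. The interaction had Ppp1r1b at -0.74, Rgs9 at -0.27, Adora2a at -0.072. The vector average had Adora2a at -0.22. The AKG average had Adora2a at -0.039. These were the ranges when each library was left out in turn. In them, Adora2a in the AKG average and Ppp1r1b in the interaction kept their sign. AKG against control had Adora2a at -0.0032 to 0.46, Ppp1r1b at -1.48 to 0.43, Rgs9 at -0.35 to 0.066. The AKG average had Adora2a at 0.076 to 0.84, Penk at -0.25 to 0.020, Ppp1r1b at -0.43 to 0.53. Combined against AKG had Adora2a at -0.25 to 1.27, Pde10a at -0.11 to 0.16, Ppp1r1b at -0.71 to 1.14, Rgs9 at -0.15 to 0.18. Combined against control had Adora2a at -0.027 to 1.50, Drd1 at -0.0052 to 0.14, Penk at -0.11 to 0.43, Ppp1r1b at -1.27 to 0.65, Rgs9 at -0.33 to 0.081, Tac1 at -0.25 to 0.046. Combined against vector had Adora2a at -0.075 to 1.45, Penk at -0.078 to 0.46, Ppp1r1b at -0.31 to 1.54, Tac1 at -0.24 to 0.065. The interaction had Adora2a at -0.30 to 1.22, Ppp1r1b at 0.18 to 2.10, Rgs9 at -0.18 to 0.23. Vector against control had Adora2a at -0.18 to 0.28, Penk at -0.061 to 0.0023, Ppp1r1b at -1.88 to 0.032, Rgs9 at -0.22 to 0.19, Tac1 at -0.17 to 0.13. The vector average had Adora2a at -0.10 to 0.66, Drd1 at -0.050 to 0.043, Ppp1r1b at -0.83 to 0.12, Rgs9 at -0.10 to 0.10. The cause was not tested. With a minimum of 5 FPKM only Penk, Ppp1r1b and Tac1 of the members remained. Adora2a and Drd1 rest on 38 to 243 reads per library, which limits their precision.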

Other observations

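Other genes that stood high in the second combined library, chosen after their values were seen, included Kcnj4, a potassium channel, at 2.10 times the median of the other 7 libraries. Chrm4, a muscarinic receptor of direct pathway neurons, was at 2.36 times, while Pdyn, the dynorphin precursor of the same neurons, was at 0.752 times. Ankrd63 was at 1.02 FPKM there, against at most 0.234 FPKM elsewhere. Lhx6, a transcription factor of interneurons, was at 3.18 times the median of the others.

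Gapdh, a housekeeping gene with many near-identical pseudogenes, was at 1.68 and 69.6 FPKM in combined, 1.44 and 1.44 in vector, 2.25 and 32.0 in AKG and 1.69 and 1.91 FPKM in control libraries. Its 2 high libraries are the second combined and second AKG libraries, and since reads of near-identical copies can be split by the counting its level is uncertain.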
